A study of Mus musculus with 18 samples.

Results

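Transcripts of 10 genes that restrain NF-κB signalling or build its TRAF-cIAP ubiquitin ligase were followed in mouse mammary carcinoma cells exposed to an HSP90 inhibitor. The genes were Tnfaip3, Tnip1, Tnip3, Zc3h12a, Cyld, Traf1, Traf2, Traf3, Birc2 and Birc3. They were chosen by name, with earlier results of these data known, as 10 of the 24421 genes of the deposited count table. RNA was sequenced from 4T1, a mouse mammary carcinoma line of strain BALB/cfC3H and wild type genotype, and from 4T1R1 and 4T1R2, populations grown out of 4T1 after repeated exposure to 17-DMAG, a geldanamycin derivative that inhibits HSP90. All 3 populations were sequenced untreated and after 1.5 µM 17-DMAG, and each of these 6 groups had 3 libraries. The sample records give 48 h of treatment and the series text gives 2 h, so the time behind the drug response is uncertain. The labels do not call any group a clone, and the resistant populations had regrown in medium without drug before they were used. Replicates 1 and 2 of treated 4T1 were closer to each other than the sampling noise of fragments would leave between separate libraries, so that both were averaged to count as 1. This left 17 libraries, 2 of treated 4T1 and 3 of each other group.

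NF-κB transcription factors are held in the cytoplasm by IκB proteins until receptors such as those for TNF and IL-1 switch on the IκB kinases. The kinases are recruited to ubiquitin chains, which TRAF proteins and the ligases cIAP1 and cIAP2 (encoded by Birc2 and Birc3) assemble at the receptor. NF-κB then induces genes that end its own signal. Among these, Tnfaip3 encodes A20, a ubiquitin-editing enzyme, Tnip1 and Tnip3 encode the A20-binding proteins ABIN-1 and ABIN-3, and Zc3h12a encodes Regnase-1, an RNase that degrades cytokine mRNAs. In carcinoma cells the pathway is known for driving cytokine, chemokine and survival genes.

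Library totals ran from 23354461 to 55094630 counts. All 6 epithelial markers were present in every group, and their summed level ran from 51041 to 77089 normalized counts, highest in 4T1 and lowest in 4T1R1. The leukocyte marker Cd3e, the fibroblast marker Dcn and the endothelial marker Kdr were at or under 3 counts in every library, while other markers of these lists were present. The summed leukocyte markers ran from 134 to 222 normalized counts, mostly Cd68, the fibroblast markers from 398 to 1046, mostly Pdgfra, and the endothelial markers from 4.29 to 17.5. Heat shock genes rose with 17-DMAG in each population: the log2FC of Hspa1b, an inducible HSP70 gene, was 5.11 ± 0.05 (SE) in 4T1, 3.23 ± 0.05 in 4T1R1 and 2.29 ± 0.05 in 4T1R2. The column names of the 4T1R1 libraries belong to another numbered series than those of 4T1 and 4T1R2, and what the number marks is not given. Any difference of 4T1R1 from 4T1 or 4T1R2, and its size, cannot be told apart from whatever that number marks. The libraries of 4T1 and 4T1R2 share a series.

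The genes lie on 8 chromosomes of the mouse genome (GRCm38.p6, RefSeq). Tnfaip3 spans chr10:19000910-19015410, Tnip1 chr11:54910787-54962956, Tnip3 chr6:65590398-65634040, Zc3h12a chr4:125118414-125127881, Cyld chr8:88696878-88751946 and Traf3 chr12:111166321-111267155. Traf1 (chr2:34941750-34961812) and Traf2 (chr2:25517982-25546940) share a chromosome, and Birc2 (chr9:7818226-7837131) and Birc3 (chr9:7847468-7873205) are neighbours separated by 10336 bases. Exons of the 10 genes overlapped no exon of another annotated gene. Of the 50-base words in their transcripts, 7.38% for Birc3 were shared with other genes, mostly the gene model Gm7019, and at most 1.52% for the other members. Birc2 and Birc3 had 65 such words in common, so reads there may fit both genes. How reads with several matches were counted is not given.

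Promoters of the feedback genes are shown because NF-κB is known to act on them, here as 250 bases before and 50 after the RefSeq start, on the gene's strand. Capitals mark matches to the 10-base κB consensus and, in Tnip3 nearest the 5′ end, to the heat shock motif GAANNTTC, both searched on both strands. Tnfaip3, Tnip1 and Tnip3 had κB matches. Zc3h12a, whose level differed most between the populations among the genes measured well above the floor, had neither motif in this window.
Tnfaip3, chr10:19015361-19015660, minus strand: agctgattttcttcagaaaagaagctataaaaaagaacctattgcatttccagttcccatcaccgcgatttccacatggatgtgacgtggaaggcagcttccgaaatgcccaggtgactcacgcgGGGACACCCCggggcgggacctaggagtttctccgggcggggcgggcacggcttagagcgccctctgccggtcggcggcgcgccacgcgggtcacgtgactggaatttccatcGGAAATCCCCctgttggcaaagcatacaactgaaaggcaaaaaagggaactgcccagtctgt
Tnip1, chr11:54962891-54963190, minus strand: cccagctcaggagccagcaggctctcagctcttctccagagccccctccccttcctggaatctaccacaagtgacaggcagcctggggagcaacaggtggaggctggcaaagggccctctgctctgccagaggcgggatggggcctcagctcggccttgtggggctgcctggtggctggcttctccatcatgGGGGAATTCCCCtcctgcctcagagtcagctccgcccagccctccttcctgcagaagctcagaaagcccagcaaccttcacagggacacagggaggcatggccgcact
Tnip3, chr6:65590148-65590447, plus strand: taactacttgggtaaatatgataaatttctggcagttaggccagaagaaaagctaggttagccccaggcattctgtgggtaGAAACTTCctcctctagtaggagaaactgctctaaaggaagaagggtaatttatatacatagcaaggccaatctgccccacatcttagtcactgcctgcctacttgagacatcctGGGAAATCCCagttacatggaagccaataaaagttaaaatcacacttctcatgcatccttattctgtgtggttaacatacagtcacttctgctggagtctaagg
Zc3h12a, chr4:125127832-125128131, minus strand: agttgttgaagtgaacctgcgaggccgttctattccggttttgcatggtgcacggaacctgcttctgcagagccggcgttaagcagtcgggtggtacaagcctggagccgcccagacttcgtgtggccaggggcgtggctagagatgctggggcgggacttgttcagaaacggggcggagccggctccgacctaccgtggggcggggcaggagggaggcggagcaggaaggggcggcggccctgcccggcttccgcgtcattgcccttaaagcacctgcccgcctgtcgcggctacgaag

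The window of Tnfaip3 held 2 separate κB matches, which began at positions -125 and -12 from its start. In Tnip1 the capitals are a 12-base palindrome that matched in 3 overlapping registers. In Tnip3 the κB match began at -54 and the heat shock motif at -169. Cyld and Traf3 each had 1 κB match as well. In all, 5 of the 12 RefSeq promoters of these genes held the κB consensus, and 8.46% of the 32851 mouse promoters of the same length did. GAANNTTC was found in 1 of the 12, against 7.86% of all promoters. The windows of Traf1, Traf2, Birc2 and Birc3 held neither, which says only that these letters are not in those 300 bases.

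Levels are given as normalized counts, which are counts scaled to a common library size. Per kilobase of exon, Tnfaip3 and Traf3 were the most abundant of the 10 in untreated 4T1, at 694 ± 8.3 and 632 ± 23.2 normalized counts per kb (SD, n = 3). Cyld was at 451 ± 8.3 per kb and Tnip1 at 341 ± 26.1 per kb. Traf1 (253 ± 1.1 per kb), Traf2 (252 ± 9.8 per kb) and Birc2 (153 ± 8.6 per kb) followed. Zc3h12a and Birc3 were the lowest of the detected genes, at 89.7 ± 4.2 and 91.1 ± 3.2 per kb, and Tnip3 was near 0, at 0.505 per kb. In untreated 4T1R1 Tnip1 and Zc3h12a stood at 911 ± 47.3 and 705 ± 16.5 per kb, below Tnfaip3 at 1033 ± 31.0 per kb and above Traf3 at 595 per kb.

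**Figure D1:**
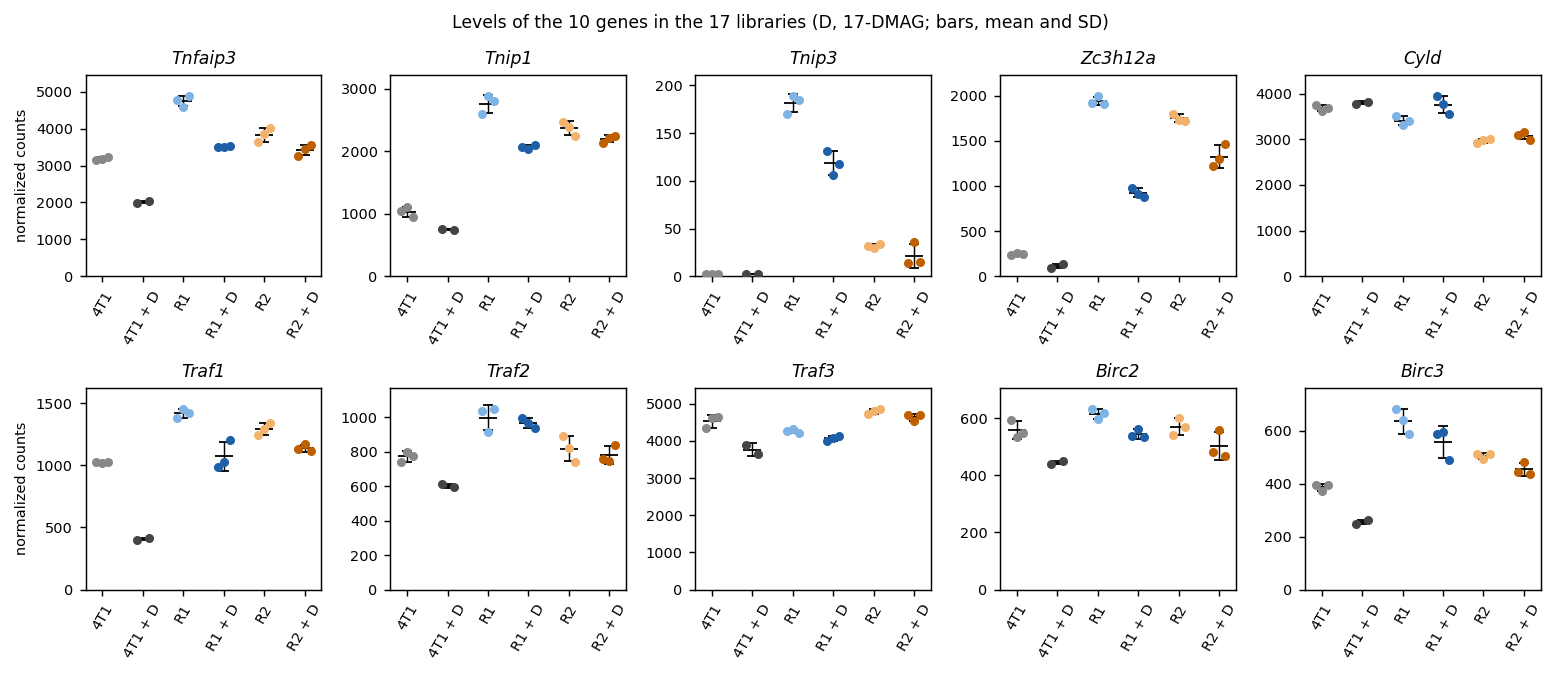
Normalized counts of the 10 genes on linear axes that start at 0, with 1 panel per gene and 1 point per library, for 4T1, 4T1R1 (R1) and 4T1R2 (R2), untreated or with 17-DMAG (+ D); bars are means and SD (n = 2 for treated 4T1, n = 3 elsewhere). Zc3h12a ran from 96.8 to 260 in 4T1 and from 883 to 1994 in the resistant populations, whereas Cyld and Traf3 stayed within 1.28-fold and 1.27-fold between group means.

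The first question was what 17-DMAG did to these transcripts in the parental 4T1 cells. Of the 10 genes, 9 were above the floor, and of these 8 fell and none rose, where 17.9% of all 13507 genes tested fell and 18.4% rose (edgeR's quasi-likelihood test, adjusted P-value under 0.05). None rose at an unadjusted P-value under 0.05 or by DESeq2 either, here and in 4T1R2. The median log2FC of the 9 measurable genes was -0.46, against 0.00 over all genes. In these bulk samples, fewer cells with a transcript and less of it per cell cannot be told apart.

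Traf1, an NF-κB-induced TRAF without a ligase domain, fell the most. It was at 1023, 1021 and 1029 normalized counts in the untreated libraries and at 402 and 414 in the treated ones. The groups were far apart, with a log2FC of -1.33 ± 0.08 (SE, adjusted P-value = 3.9e-18). Zc3h12a was at 239, 260 and 242 untreated and at 96.8 and 131 treated (log2FC -1.14 ± 0.12, adjusted P-value = 2.54e-10). Its treated libraries were the less alike, but both lay below every untreated one. Tnfaip3 was at 3164, 3168 and 3232 untreated and at 1985 and 2034 treated (log2FC -0.67 ± 0.04, adjusted P-value = 5.35e-16). Birc3, the NF-κB-induced cIAP gene, was at 394, 371 and 395 untreated and at 248 and 261 treated (log2FC -0.61 ± 0.10, adjusted P-value = 4.68e-06). Treated and untreated libraries did not overlap for any of the 9 genes above the floor, Cyld included, which did not pass, so non-overlap does not set these 4 apart. The share of all genes without overlap was not counted.

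The remaining members fell less. Tnip1 was at 1046, 1106 and 949 untreated and at 758 and 742 treated (log2FC -0.46 ± 0.06, adjusted P-value = 1.23e-07). Traf2 (log2FC -0.36 ± 0.08), Birc2 (-0.33 ± 0.09) and Traf3 (-0.26 ± 0.04), the parts of the constitutive complex that ubiquitinates the kinase NIK, each passed the test. Cyld encodes a deubiquitinase that trims the ubiquitin chains on which the kinases gather. Its log2FC was 0.05 ± 0.04 (adjusted P-value = 0.41), and -0.07 under scaling by total counts, so it had no settled direction. Tnip3 was at 2 counts in each untreated library and at 4, 2 and 2 counts in the 3 treated ones, at or under the floor of 3 counts once the like libraries were averaged, and no fold is given. The summed fibroblast markers, mostly Pdgfra, moved with the drug too, from 684 to 766 normalized counts untreated to 398 to 421 treated, with Dcn at or under 3 counts; their part in the result was not tested. Scaling by total counts alone lowered the median log2FC of all genes to -0.11, and the higher share of all calls went from 50.7% to 21.6%; the 8 falls passed under either scaling.

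In 4T1R1, 5 of the 10 genes fell and 1 rose with 17-DMAG, where 14.3% of all genes fell and 13.9% rose. The median log2FC of the 10 was -0.30 (-0.01 over all genes). Zc3h12a was at 1920, 1994 and 1912 normalized counts untreated and at 981, 908 and 883 treated (log2FC -1.07 ± 0.06, adjusted P-value = 1.93e-17). Tnfaip3 was at 4762, 4596 and 4880 untreated and at 3499, 3508 and 3522 treated (log2FC -0.44 ± 0.04, adjusted P-value = 3.62e-12). The treated libraries of Tnfaip3 were within 1% of each other and below all untreated ones. Tnip1 (log2FC -0.42 ± 0.05) and Traf1 (-0.40 ± 0.06) fell as well, and Traf1 varied among the treated libraries, at 983, 1025 and 1207. Tnip3 was at 170, 189 and 185 untreated and at 131, 106 and 118 treated (log2FC -0.61 ± 0.19, adjusted P-value = 0.0139); without untreated replicate 2 its adjusted P-value was 0.0583 and without treated replicate 2 it was 0.0707. Cyld was the gene that rose (log2FC 0.14 ± 0.04, adjusted P-value = 0.00336), and without treated replicate 1 this was 0.11 with an adjusted P-value of 0.057. Traf2, Traf3, Birc2 and Birc3 did not pass, with log2FC between -0.19 and -0.05. Birc3, at -0.19 ± 0.08 (adjusted P-value = 0.0717), passed without untreated replicate 3 (-0.24, adjusted P-value = 0.0319) or treated replicate 2 (-0.23, adjusted P-value = 0.0485). The higher share of all calls was 49.2% here and 64.2% with scaling by total counts.

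In 4T1R2, 3 of the 10 genes fell and none rose by edgeR, where 4.35% of all genes fell and 6.18% rose. The median log2FC of the 10 was -0.16 (0.00 over all genes). Zc3h12a was at 1798, 1730 and 1716 normalized counts untreated and at 1218, 1297 and 1461 treated (log2FC -0.40 ± 0.06, adjusted P-value = 6.16e-06). Tnfaip3 was at 3639.7, 3843 and 4014 untreated and at 3272, 3457 and 3547 treated (log2FC -0.16 ± 0.04, adjusted P-value = 0.00305). These groups did not overlap, but without untreated replicate 3 the change of Tnfaip3 was -0.12 with an adjusted P-value of 0.0548. Traf1 was at 1241, 1294 and 1344 untreated and at 1132, 1167 and 1113 treated (log2FC -0.18 ± 0.06, adjusted P-value = 0.0363), and it no longer passed when any of untreated replicates 2 or 3 or any treated replicate was left out, with log2FC of -0.18 and -0.15 without the untreated ones and of -0.18, -0.20 and -0.17 without treated replicates 1, 2 and 3. Tnip1 had a log2FC of -0.11 ± 0.05 (adjusted P-value = 0.142), and -0.16 with an adjusted P-value of 0.0319 under scaling by total counts. Tnip3 was at 31.5, 29.8 and 33.7 untreated and at 13.8, 36.1 and 15.1 treated, so that treated replicate 2 lay above every untreated library. Its log2FC was -0.53 ± 0.29 (adjusted P-value = 0.287), and -1.13 (adjusted P-value = 0.0211) without that library. Birc2, at -0.18 ± 0.08 (adjusted P-value = 0.135), was -0.26 (adjusted P-value = 0.0411) without the same library. The counts of genes called were fewest in this population for the genome as well as for these 10, and the higher share of all calls was 58.7%, or 24.2% with scaling by total counts.

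**Figure D2:**
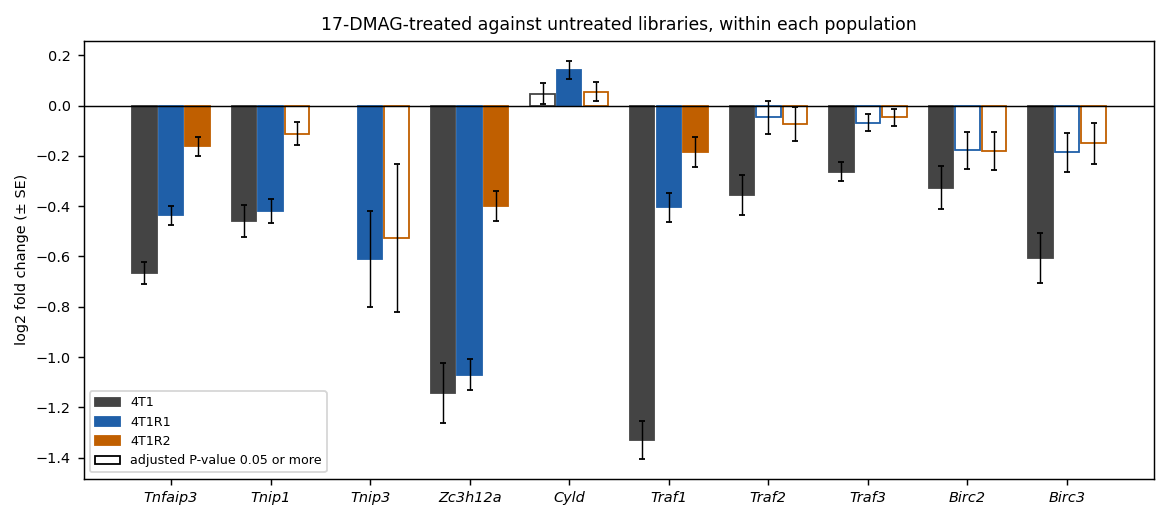
Log2FC with SE (edgeR) of 17-DMAG-treated against untreated libraries for each gene in 4T1 (grey), 4T1R1 (blue) and 4T1R2 (orange), with open bars for adjusted P-values of 0.05 or more. Traf1 fell by 1.33 in 4T1 and by 0.40 and 0.18 in 4T1R1 and 4T1R2; Tnip3 is not drawn for 4T1, where it was at the floor, and Cyld in 4T1 was 0.05, or -0.07 with scaling by total counts.

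The design next allowed a test of whether the drug response itself differed between a resistant population and 4T1. Both differences use the same 4T1 libraries and are therefore not independent of each other. In 4T1R1 the response of 5 genes was less negative than in 4T1 and that of none more negative, where 9.16% of all genes differed upward and 9.08% downward. In 4T1R2 it was 6 genes and none, where 9.62% and 8.16% of all genes differed. The counts of 0 were also 0 at an unadjusted P-value under 0.05 and by DESeq2. The rise of the heat shock gene Hspa1b was smaller in the resistant populations too, with log2FC of 5.11 in 4T1, 3.23 in 4T1R1 and 2.29 in 4T1R2. Whether the smaller falls go with a weaker drug response in general was not tested.

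Traf1 had the largest difference in both populations, 0.92 ± 0.10 (SE) on the log2 scale in 4T1R1 (adjusted P-value = 9.32e-10) and 1.15 ± 0.10 in 4T1R2 (adjusted P-value = 1.91e-12). Tnfaip3 differed by 0.23 ± 0.06 (adjusted P-value = 0.00326) and 0.51 ± 0.06 (adjusted P-value = 7.05e-09). Traf1 and Tnfaip3 thus kept more of their untreated level under the drug in both resistant populations. Birc3 differed by 0.42 ± 0.13 (adjusted P-value = 0.0165) and 0.46 ± 0.13 (adjusted P-value = 0.0104), and Traf3 by 0.20 ± 0.05 (adjusted P-value = 0.00535) and 0.22 ± 0.05 (adjusted P-value = 0.00195). Without treated 4T1 replicates 1 and 2, which leaves 1 treated 4T1 library, the Birc3 differences were 0.38 (adjusted P-value = 0.105) and 0.42 (adjusted P-value = 0.0716). Without treated 4T1R1 replicate 1 the Birc3 difference in 4T1R1 was 0.38 (adjusted P-value = 0.0503), and without treated 4T1 replicate 3 that of Traf3 was 0.15 (adjusted P-value = 0.0899).

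Zc3h12a and Tnip1 passed in 4T1R2 and not in 4T1R1. In 4T1R1 the response of Zc3h12a differed from that in 4T1 by 0.07 ± 0.14 (adjusted P-value = 0.789), and by -0.16 without treated 4T1 replicates 1 and 2. In 4T1R2 it differed by 0.74 ± 0.14 (adjusted P-value = 6.72e-05). Tnip1 differed by 0.04 ± 0.08 (adjusted P-value = 0.798) in 4T1R1 and 0.35 ± 0.08 (adjusted P-value = 0.00112) in 4T1R2. The responses of 4T1R1 and 4T1R2 were not tested against each other. Traf2 differed by 0.31 ± 0.10 in 4T1R1 (adjusted P-value = 0.0288) and by 0.28 ± 0.10 in 4T1R2 (adjusted P-value = 0.0538), on opposite sides of the threshold with nearly the same size. The 4T1R1 value did not pass without untreated 4T1 replicate 2 (0.28) or 3 (0.30), treated 4T1 replicate 3 (0.29) or replicates 1 and 2 (0.33), untreated 4T1R1 replicate 2 (0.25) or treated 4T1R1 replicate 1 (0.29). The 4T1R2 value passed in 8 of 9 other settings of scaling, filter, tool, samples and block, at 0.35 with scaling by total counts, and the exception was the fit with no filter. It also passed without untreated 4T1 replicate 1 (0.31), treated 4T1 replicate 1 (0.29), untreated 4T1R1 replicate 2 (0.28), untreated 4T1R2 replicate 1 (0.35) or treated 4T1R2 replicate 2 (0.32). Cyld and Birc2 did not pass in either population, but with scaling by total counts they passed in 4T1R1, Cyld at 0.24 (adjusted P-value = 0.002) in place of 0.09 and Birc2 at 0.30 (adjusted P-value = 0.0491) in place of 0.15. Scaling by total counts raised the median difference of all genes to 0.15 in 4T1R1 and 0.07 in 4T1R2, and the higher share of all calls from 50.2% to 89.4% and from 54.1% to 76.8%; in 4T1R1 Tnfaip3 was then at 0.38 and Traf3 at 0.35.

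The resistant populations were then set against 4T1 without drug. Tnip3 was at the floor in 4T1 and is described separately. Of the 9 other genes, 6 were higher and 2 lower in untreated 4T1R1 than in untreated 4T1, where 25.2% of all genes were higher and 27.5% lower. In untreated 4T1R2, 6 of the 9 were higher and 1 lower, where 25.6% and 26.9% of all genes were. Their median log2FC was 0.47 and 0.26, against 0.01 over all genes in both. The summed fibroblast markers, mostly Pdgfra, ran from 684 to 766 normalized counts in untreated 4T1, 850 to 897 in 4T1R1 and 920 to 1046 in 4T1R2, with Dcn at or under 3 counts, and the leukocyte markers from 134 to 194, 208 to 222 and 189 to 214; their part in the result was not tested. The comparisons share the untreated 4T1 libraries.

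Zc3h12a rose the most of the well-measured genes, from 247 ± 11.5 normalized counts (SD, n = 3) in 4T1 to 1942 ± 45.4 in 4T1R1 and 1748 ± 43.8 in 4T1R2. The log2FC was 2.97 ± 0.07 (SE, adjusted P-value = 5.96e-31) and 2.82 ± 0.07 (adjusted P-value = 6.86e-30), or 7.86-fold and 7.08-fold. Tnip1 was at 1046, 1106 and 949 in 4T1, at 2600.4, 2879 and 2798 in 4T1R1 and at 2473, 2392 and 2243 in 4T1R2, with log2FC of 1.42 ± 0.05 and 1.20 ± 0.05 (adjusted P-values = 2.27e-25 and 1.25e-22). Zc3h12a and Tnip1 stood well above the other genes that were above the floor in 4T1. Birc3 was higher by 0.72 ± 0.08 and 0.39 ± 0.08, Tnfaip3 by 0.57 ± 0.04 and 0.26 ± 0.04, and Traf1 by 0.47 ± 0.06 and 0.33 ± 0.06 in 4T1R1 and 4T1R2. Each of these rises was larger in 4T1R1, a difference that was not tested and cannot be told apart from the numbered series of the column names.

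Among the constitutive complex, Traf2 was higher in 4T1R1 (log2FC 0.37 ± 0.07, adjusted P-value = 1.05e-05), at 1037, 912 and 1046 against 740.2, 799.8 and 778 in 4T1. In 4T1R2 it was at 889, 824 and 743, overlapping 4T1, with a log2FC of 0.09 ± 0.07 (adjusted P-value = 0.306). Birc2 did not pass, at 0.14 ± 0.07 (adjusted P-value = 0.104) and 0.03 ± 0.08 (adjusted P-value = 0.765), the latter -0.00 without untreated 4T1 replicate 2 and -0.01 without untreated 4T1R2 replicate 2. Traf3 went in opposite directions, -0.09 ± 0.03 in 4T1R1 (adjusted P-value = 0.0303) and 0.08 ± 0.03 in 4T1R2 (adjusted P-value = 0.0433). Neither Traf3 call was stable. In 4T1R1 it did not pass without untreated 4T1 replicate 2 (-0.07) or 3 (-0.07) or untreated 4T1R1 replicate 1 (-0.09) or 3 (-0.08), and in 4T1R2 without untreated 4T1 replicate 1 (0.05) or untreated 4T1R2 replicate 2 (0.08) or 3 (0.07). Cyld was lower in both, by -0.11 ± 0.04 in 4T1R1 (adjusted P-value = 0.0123) and -0.31 ± 0.04 in 4T1R2 (adjusted P-value = 4.2e-09). The 4T1R1 value was -0.09 (adjusted P-value = 0.0583) without untreated 4T1R1 replicate 2 and -0.08 (adjusted P-value = 0.0864) with scaling by total counts.

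Tnip3 was nearly silent in 4T1 and present in both resistant populations. It had 2 counts in each untreated 4T1 library, 176, 182 and 200 counts in untreated 4T1R1 and 33, 23 and 29 in untreated 4T1R2. It passed the filter on low counts only through the resistant groups, so its difference from 4T1 is given as a description. Counts were halved, because even counts prevailed as if both ends of each fragment had been counted, and ratios were given exact 95% intervals that cover counting error only. The ratio to untreated 4T1 was 88.9 (30.1 to 434) in 4T1R1 and 15.4 (4.91 to 77.6) in 4T1R2. Between the resistant populations themselves the ratio of 4T1R1 to 4T1R2 was 5.78 (4.17 to 8.20), which cannot be told apart from the numbered series of the column names. Under 17-DMAG the group mean was 2.27 normalized counts in treated 4T1, 118 in treated 4T1R1 and 21.7 in treated 4T1R2. No ratio is given under drug, because the few counts of treated 4T1 were averaged, and halving and rounding them would shift it.

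The same comparison was made with 17-DMAG present. Of the 9 genes above the floor in 4T1, 8 were higher in 4T1R1 and none lower than in treated 4T1, where 25.1% of all genes were higher and 27.6% lower (edgeR; none lower at an unadjusted P-value under 0.05 or by DESeq2). In 4T1R2, 7 of the 9 were higher and 1 lower, where 25.8% and 28.0% of all genes were. The summed fibroblast markers ran from 398 to 421 normalized counts in treated 4T1, 718 to 785 in treated 4T1R1 and 799 to 910.2 in treated 4T1R2, and their part was not tested. The median log2FC of the 9 genes was 0.81 and 0.77, against 0.01 and 0.00 over all genes. Scaling by total counts raised the median of all genes to 0.18 and 0.09, and the higher share of all calls from 47.6% to 75.7% and from 48.0% to 62.4%.

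Zc3h12a was at 114 ± 24.2 normalized counts (SD, n = 2) in treated 4T1, 924 ± 50.6 in treated 4T1R1 and 1325 ± 124 in treated 4T1R2 (n = 3 each), with log2FC of 3.05 ± 0.10 and 3.57 ± 0.10 (SE). Traf1 was 1.39 ± 0.08 higher in 4T1R1 and 1.48 ± 0.08 in 4T1R2, and Tnip1 1.46 ± 0.06 and 1.55 ± 0.06. Without drug the Traf1 values were 0.47 and 0.33, and the gap between the conditions is the difference in response tested above. Birc3 (1.14 ± 0.10 and 0.84 ± 0.10), Tnfaip3 (0.81 ± 0.04 and 0.77 ± 0.04), Traf2 (0.68 ± 0.08 and 0.37 ± 0.08) and Traf3 (0.11 ± 0.04 and 0.30 ± 0.04) were higher in both. Traf3 in 4T1R1 did not pass without treated 4T1 replicate 3 (0.07) or treated 4T1R1 replicate 3 (0.10), and with scaling by total counts it was 0.28 and Birc2 0.47. Birc2 was higher in 4T1R1 (0.29 ± 0.09, adjusted P-value = 0.00393), and in 4T1R2 its log2FC was 0.18 ± 0.09 (adjusted P-value = 0.0774), or 0.23 (adjusted P-value = 0.0381) without treated 4T1R2 replicate 3, 0.27 (adjusted P-value = 0.00948) with scaling by total counts and 0.18 (adjusted P-value = 0.0365) with 18 separate libraries. Cyld was lower in 4T1R2 (-0.30 ± 0.04) and had no settled direction in 4T1R1, at -0.02 ± 0.04 (adjusted P-value = 0.783), 0.02 without treated 4T1R1 replicate 3, 0.00 with a minimum of 10 counts in every library and 0.16 (adjusted P-value = 0.00263) with scaling by total counts.

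**Figure D3:**
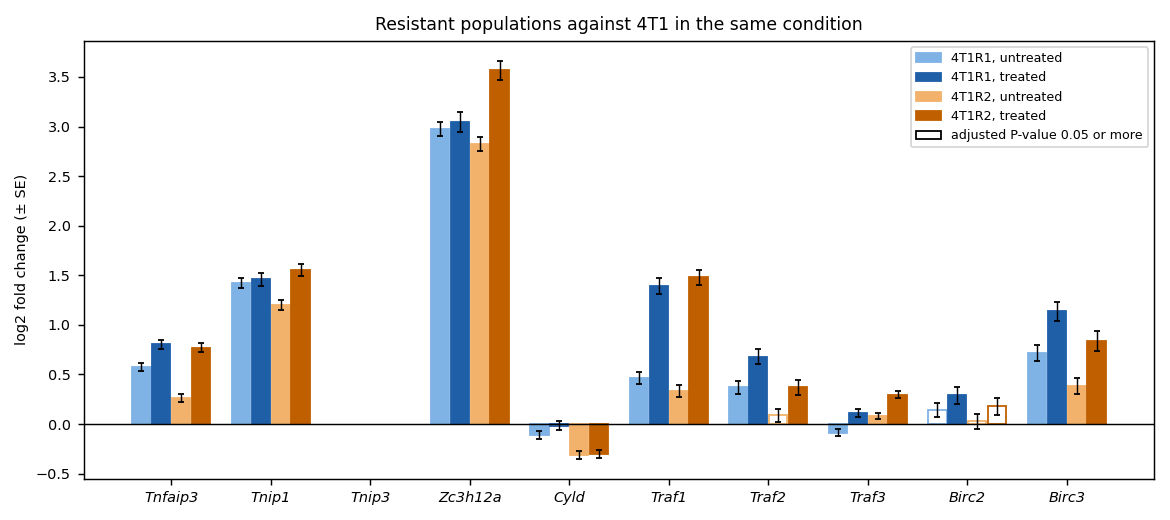
Log2FC with SE (edgeR) of 4T1R1 (blue) and 4T1R2 (orange) against 4T1, untreated (light) and 17-DMAG-treated (dark), with open bars for adjusted P-values of 0.05 or more; Tnip3 is not drawn because it was at the floor in 4T1. Zc3h12a is at 2.82 to 3.57 and Tnip1 at 1.20 to 1.55 in all 4 comparisons, while Traf1 is at 0.33 to 0.47 untreated and 1.39 to 1.48 treated; Cyld in treated 4T1R1 is -0.02, or 0.16 with scaling by total counts.

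The level that remained under drug in a resistant population could also be set beside that of untreated 4T1, as a description. In treated 4T1R1, every library lay above every untreated 4T1 library for 5 of the 9 genes above the floor, Tnfaip3, Tnip1, Zc3h12a, Traf2 and Birc3, and for 28.5% of all genes tested. In treated 4T1R2 this held for 5 of the 9 as well, with Traf1 in place of Traf2, and for 28.3% of all genes. The ratio of the group means was 3.74 and 5.36 for Zc3h12a, 1.99 and 2.12 for Tnip1, 1.44 and 1.18 for Birc3 and 1.10 and 1.07 for Tnfaip3. Every library lay below all untreated 4T1 ones for Traf3 in 4T1R1 (ratio 0.899) and for Cyld in 4T1R2 (ratio 0.837), and for 29.9% and 29.2% of all genes.

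Ordered by group mean, 6 of the 9 genes above the floor had treated 4T1 lowest, then untreated 4T1, with the 4 resistant groups above, an order that 12.5% of all genes tested had. These were Tnfaip3, Tnip1, Zc3h12a, Traf1, Traf2 and Birc3. Untreated 4T1R1 was the highest group in each of them. For Tnip1 and Zc3h12a no neighbours in the order overlapped. From low to high it was treated 4T1, untreated 4T1, treated 4T1R1, treated 4T1R2, untreated 4T1R2 and untreated 4T1R1. For Tnip1 in 4T1R2 the gap was only from 2241 normalized counts treated to 2243 untreated, and that response did not pass. How many of all genes had no overlapping neighbours was not counted. For Tnfaip3 only treated 4T1R2 and treated 4T1R1 overlapped. For Traf1 untreated 4T1, treated 4T1R1 and treated 4T1R2 formed a run of overlapping neighbours, and with scaling by total counts the last 2 changed places. In Birc3 the overlapping neighbours were untreated 4T1R2, treated 4T1R1 and untreated 4T1R1, and Traf2 had overlaps between untreated 4T1, treated 4T1R2 and untreated 4T1R2 and between the 4T1R1 groups; with scaling by total counts treated 4T1R2 ranked below untreated 4T1 for Traf2. Birc2 had treated 4T1 lowest and every other pair of neighbours overlapping. Traf3 was lowest in treated 4T1 and highest in 4T1R2, and only untreated 4T1 and treated 4T1R2 overlapped. Cyld ran the other way, from untreated 4T1R2 as the lowest to treated 4T1 as the highest, or treated 4T1R1 as the highest with scaling by total counts. Its 4T1R2 groups overlapped each other, and treated 4T1R1 overlapped both 4T1 groups.

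Other genes of the pathway, from 3 lists, were counted in the same fit. Of 10 NF-κB subunits and IκB proteins, 9 fell with 17-DMAG in 4T1, 9 in 4T1R1 and 5 in 4T1R2, and none rose by edgeR, at an unadjusted P-value under 0.05 or by DESeq2. Their median log2FC was -0.77, -0.35 and -0.15. Of all genes tested, 17.9%, 14.3% and 4.35% fell and 18.4%, 13.9% and 6.18% rose in these populations. Nfkbia, the gene of IκBα, fell most in 4T1 (log2FC -2.10), followed by the subunit gene Relb (-1.53), the IκB-like Bcl3 (-1.44) and Nfkbie (-1.33). Without drug 10 of 10 were higher in 4T1R1 and 7 in 4T1R2 than in 4T1, with median log2FC of 0.67 and 0.32; Bcl3 was at 1.42 and 0.72 and Nfkbia at 1.32 and 1.13. Under drug 9 and 10 were higher, and the drug response was less negative than in 4T1 for 7 genes in 4T1R1, with 1 more negative, and for 8 in 4T1R2. Of all genes tested, 25.2% in 4T1R1 and 25.6% in 4T1R2 were higher without drug, and 25.1% and 25.8% under drug. The response differed upward for 9.16% and 9.62% of all genes and downward for 9.08% and 8.16%.

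Of 17 further brakes and relatives of the set, 16 were tested, and Zc3h12d had too few counts. In 4T1, 7 fell and 2 rose with the drug (median log2FC -0.15), in 4T1R1 4 fell and 3 rose (-0.06), and in 4T1R2 1 fell (-0.04). That gene was Rc3h1, which encodes the RNA-binding protein Roquin-1, with a log2FC of -0.93 in 4T1, -0.35 in 4T1R1 and -0.20 in 4T1R2. In 4T1 Traf4 (-0.48) and Zc3h12c (-0.40), a relative of Zc3h12a, followed. Of all genes tested, 17.9% fell and 18.4% rose in 4T1, 14.3% and 13.9% in 4T1R1 and 4.35% and 6.18% in 4T1R2. Without drug 5 brakes were higher and 3 lower in 4T1R1, where 25.2% and 27.5% of all genes were. In 4T1R2 it was 4 and 4, where 25.6% and 26.9% were. Under drug 9 and 8 were higher and 0 and 1 lower, where 25.1% and 25.8% of all genes were higher and 27.6% and 28.0% lower. The response was less negative for 4 in 4T1R1 and 5 in 4T1R2, where 9.16% and 9.62% of all genes differed upward. It was more negative for 0 and 1, where 9.08% and 8.16% differed downward. At an unadjusted P-value under 0.05, 2 were higher with drug in 4T1R2, 1 was lower in treated 4T1R1 and 1 had a more negative response in 4T1R1, and DESeq2 called none of these.

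Of 19 kinases and adaptors that carry the signal to NF-κB, 5 rose and 2 fell with 17-DMAG in 4T1 (median log2FC -0.02), 3 rose and 1 fell in 4T1R1 (-0.03), and none passed in 4T1R2 (0.01), where 2 were higher and 0 lower at an unadjusted P-value under 0.05 and DESeq2 called 1 higher. Of all genes tested, 18.4% rose and 17.9% fell in 4T1, 13.9% and 14.3% in 4T1R1 and 6.18% and 4.35% in 4T1R2. Ikbke, a gene for an IκB kinase-related kinase, fell in 4T1 (-0.47), and Traf6 (0.35) and Sharpin (0.32), a subunit of the linear ubiquitin ligase, rose. Without drug 6 were higher and 5 lower in 4T1R1, where 25.2% and 27.5% of all genes were. In 4T1R2 it was 4 and 5, where 25.6% and 26.9% of all genes were. Ikbke stood out at 1.41 and 0.82. Under drug 3 were higher and 2 lower in 4T1R1, where 25.1% and 27.6% of all genes were. In 4T1R2 it was 4 and 7, where 25.8% and 28.0% of all genes were. The response differed upward for 1 and downward for 1 in 4T1R1, where 9.16% and 9.08% of all genes did. In 4T1R2 it was 1 and 3, where 9.62% and 8.16% of all genes did. Map3k14, the gene of NIK, which the TRAF-cIAP complex marks for degradation, did not pass in any drug response (log2FC 0.14 to 0.19), and this gene was named after its values were seen. Its edgeR adjusted P-values there ran from 0.0546 in 4T1R2 to 0.0979 in 4T1R1, and the unadjusted ones from 0.00595 to 0.0364. Without drug it was higher than in 4T1 in 4T1R1 (0.16, adjusted P-value = 0.0307) and lower in 4T1R2 (-0.18, adjusted P-value = 0.018).

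**Figure D4:**
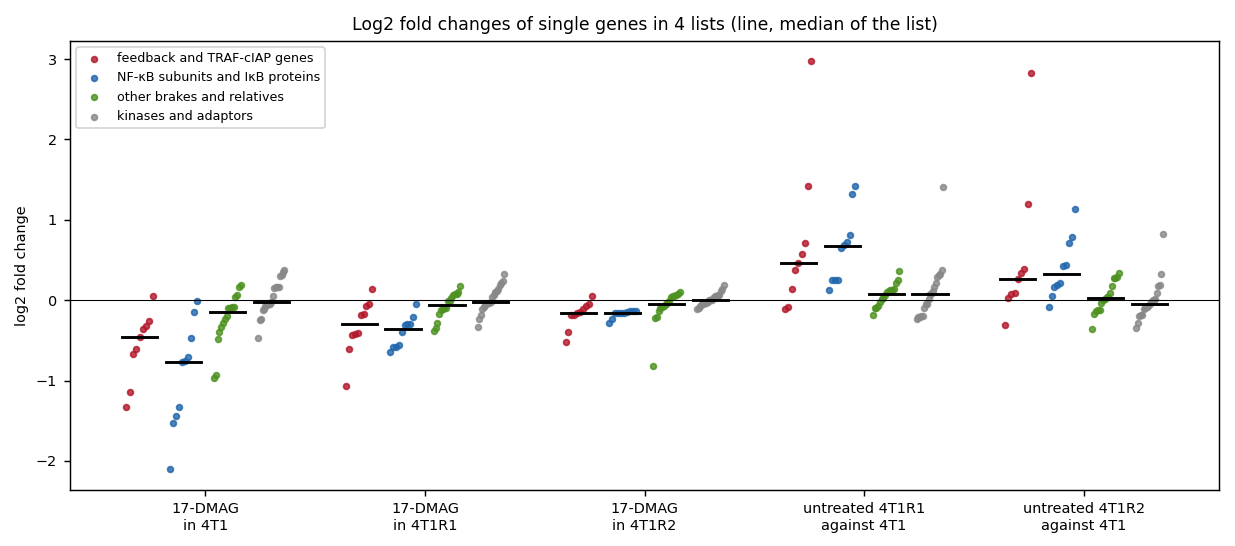
Log2FC of single genes (points, edgeR) in 5 comparisons for the 10 genes of the set (red), 10 NF-κB subunits and IκB proteins (blue), 16 other brakes and relatives (green) and 19 kinases and adaptors (grey), with a black line at each list's median; Tnip3 is left out where 4T1 was at the floor. With 17-DMAG in 4T1 the medians were -0.46, -0.77, -0.15 and -0.02, and in untreated 4T1R1 against 4T1 0.47, 0.67, 0.08 and 0.07.

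The likeness of patterns was described by Pearson's r of log2(normalized count + 1) over the 17 libraries, which share the same 6 groups and 3 populations. Within the set, Tnip1 and Zc3h12a were the closest pair (r = 0.990), followed by Tnfaip3 and Traf1 (0.947) and Tnfaip3 and Birc3 (0.929). Cyld was negative with each of the others, from -0.061 with Traf2 to -0.783 with Traf3. Among 10326 other genes that averaged 100 normalized counts or more, the closest to Zc3h12a were Csf3, the gene of the cytokine G-CSF (r = 0.992), Tmem176b (0.991) and the chemokine gene Cxcl5 (0.990). Tnip1 was closest to Nedd9 (0.991), Ltbp2 (0.990) and Tmem176b (0.990). Tnfaip3 was closest to Tnfrsf1b, which encodes TNF receptor 2 (0.982), Fam53c (0.980) and Bcl3 (0.974), and Traf1 to Jade2 (0.981), the AP-1 gene Junb (0.981) and Polr2a (0.975). Birc3 was closest to Zranb3 (0.975), Etv6 (0.972) and Zfyve1 (0.972), and Cyld to Usp34 (0.975), Trim44 (0.975) and Phf20l1 (0.968). Traf2, Traf3 and Birc2 had less close neighbours, led by Zc3h12c (0.951), Cdc42se1 (0.953) and Lamb2 (0.918). Tnip3 was closest to Nov (0.983), 2410089E03Rik (0.981) and Adgrf5 (0.979), where the floor in 4T1 weighs on r.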

How the data were processed

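Stranded libraries were made from total RNA of 18 samples after ribosomal depletion; the authors' notes name bcl2fastq 2.20, STAR, and featureCounts of Subread 1.6.2 on GRCm38 (mm10). The authors deposited whole-number counts per gene without normalization, and whether strand was used and how reads with several matches were counted is not given in the sources used here. Among counts of 1 to 12, between 65.6% and 70.8% were even, as if both ends of each fragment had been counted. The ribosomal gene Rn45s took 9.54% to 15.6% of the counts.

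Libraries of a group were compared over genes with 4 to 30 counts: the chi-square per gene was 1.10 for treated 4T1 replicates 1 and 2, which were averaged, and 2.04 to 2.22 for the 17 other pairs. Counting both ends of a fragment would put separate libraries near 2, so this pair was closer than separate sampling leaves. The series text calls the samples biological replicas. Each resistant label is a single selected population, so P-values measure the spread among its libraries and not that between selections. Counts were tested with edgeR 4.0.16 (R 4.3.3): filterByExpr, TMM, 6 group means over 17 libraries, the quasi-likelihood test and Benjamini-Hochberg adjustment over 13507 genes at 0.05. The common biological coefficient of variation was 0.0376. Errors on log2FC are SE; other errors are SD. Normalized counts are counts over a library's TMM effective size, times the geometric mean of these sizes.

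Promoters came from RefSeq (GRCm38.p6; all 10 genes matched) and transcripts and exon lengths from GENCODE M21. The members and gene lists were chosen with earlier results of these data known. All 10 members were named in every comparison; from each list, counts and at most 4 called genes with the largest change; for each member, the 3 genes with the highest r. Replicate numbers did not pair the samples: 2 of 40 same-number correlations of deviations exceeded 0.1 (-0.190 to 0.170). Alternatives were RLE scaling, total-count scaling, no filter, at least 10 counts in every library, DESeq2 1.42.0, only the groups compared, 18 separate libraries, the replicate block and each library left out. The code was tested on simulated data. Figures used matplotlib 3.10.9 in Python 3.11.15. A single marker gene is withheld and not reported here.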

Additional observations from a re-analysis of the deposited data

Results flagged for a closer look

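The 17-DMAG response of 11 combinations of gene and resistant population differed from that in 4T1 by a test of the difference itself (edgeR, adjusted P-value under 0.05), all toward a smaller fall. On the log2 scale, 4T1R1 minus 4T1, these were Traf1 at 0.92, Birc3 at 0.42, Traf2 at 0.31, Tnfaip3 at 0.23 and Traf3 at 0.20. For 4T1R2 minus 4T1 they were Traf1 at 1.15, Zc3h12a at 0.74, Tnfaip3 at 0.51, Birc3 at 0.46, Tnip1 at 0.35 and Traf3 at 0.22. Of all genes tested, 9.16% in 4T1R1 and 9.62% in 4T1R2 differed upward, and 9.08% and 8.16% downward. The rise of Hspa1b was smaller in both resistant populations as well, and a weaker drug response in general was not tested as a cause. The differences rest on the same 5 libraries of 4T1.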

How the results depend on the processing

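Values under other settings changed calls mainly for genes near the threshold; the cause was not tested. In these counts Tnip3 is included, although it passed the filter on low counts only through the resistant groups. With it, the fit reported had 9 genes higher under drug in 4T1R1 and 8 in 4T1R2, and 7 higher without drug in each. The number of genes lower in untreated 4T1R1 than in untreated 4T1, 2 in the fit reported, was 0 with scaling by total counts, 1 without a filter and 1 when only the groups compared were fitted. With each library left out in turn, that number ran from 1 to 2, the number higher with 17-DMAG in 4T1R1 from 0 to 1 and lower from 4 to 6, the number lower in 4T1R2 from 1 to 4, the differences in response from 3 to 5 in 4T1R1 and from 5 to 7 in 4T1R2, the numbers higher under drug from 8 to 9 in both populations, and the number higher in untreated 4T1R2 from 6 to 7. Leaving out libraries, log2FC of both signs were found for Birc2 in untreated 4T1R2 (-0.00801 to 0.0758, and -0.000771 without untreated 4T1 replicate 2), Cyld in treated 4T1R1 (-0.0512 to 0.0226), and, in the difference in response, Tnip1 in 4T1R1 (-0.0110 to 0.0990, and -0.000833 without untreated 4T1R1 replicate 1), Zc3h12a in 4T1R1 (-0.160 to 0.283) and Cyld in 4T1R2 (-0.00967 to 0.0293, with -0.00364 and -0.00616 without untreated 4T1 replicate 1 or untreated 4T1R2 replicate 1); none of these passed. Cyld was -0.0686 with scaling by total counts in the response of 4T1, and in treated 4T1R1 against 4T1 it was 0.161 with that scaling and 0.00304 with at least 10 counts in every library.

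The labels share replicate numbers, so the number was also fitted as a block. With the replicate block, the Traf2 difference in response in 4T1R2 was 0.30 (adjusted P-value = 0.0455) on 17 libraries and 0.28 (adjusted P-value = 0.0401) on 18, and Birc2 in treated 4T1R2 against 4T1 was 0.18 (adjusted P-value = 0.0401) on 18; no other call changed with the block. Scaling by total counts gave counts over 1.5 times apart over all genes: 1193 higher and 4322 lower in the response of 4T1 in place of 2490 and 2423, 365 and 1146 in 4T1R2 in place of 835 and 588, 5801 and 1863 in treated 4T1R1 in place of 3386 and 3732, 3536 and 419 in the difference in response of 4T1R1 in place of 1237 and 1227, and 2091 and 632 in that of 4T1R2 in place of 1299 and 1102. Single libraries moved such counts as well: the genes lower in the response of 4T1R2 were 367 without treated 4T1R2 replicate 1 and 376 without untreated 4T1R2 replicate 2, and without treated 4T1 replicate 3 the difference in response had 798 genes higher and 787 lower in 4T1R1 and 668 lower in 4T1R2. Depth limits Tnip3 most, with 2 counts in each untreated 4T1 library.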
